A study of Mus musculus with 14 samples.

Results

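A set of 8 genes of the NF-kappaB system were followed through natural killer (NK) cells of a mouse breast cancer model. Nfkb1, Nfkb2, Rel and Relb encode subunits, Nfkbia and Nfkbiz encode proteins of the IkB inhibitor family, and Tnfaip3 and Neurl3 encode ubiquitin-system enzymes. They were chosen by name with earlier results of these data known, and all 8 were found among the 10210 genes of the NK count table. The 8 were also among the 8471 genes that had enough counts to be tested.

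The libraries came from cells of BALB/c mice. Tumours were grown from 4T1-GFP, a mouse triple-negative mammary carcinoma line that carries green fluorescent protein. The labels give an age of 8 weeks for the mice of all groups. In the tumour-bearing groups, females of that age had received 100000 4T1-GFP cells in the lower left mammary fat pad. Tumour NK (4 libraries) are NK cells taken out of these tumours, tumour-bearing spleen NK (4 libraries) are NK cells from the spleens of mice with such tumours, and healthy spleen NK (3 libraries) are from spleens of mice without tumours. All 3 NK groups were enriched with magnetic beads and then sorted as GFP-, EPCAM-, CD45+, CD3-, CD31-, CD14- and NKp46+ cells. A further 3 libraries held sCAFs, a fraction of cancer-associated fibroblasts sorted from 4T1-GFP tumours as EPCAM-, GFP-, CD45-, CD31- and PDPN- cells. The age at which mice were killed is not given in the sources used here, and the labels tie no replicate number to a mouse. Tumour tissue was cut up and kept with collagenase A and DNase for 20 min at 37 °C, whereas spleens were crushed and their red cells lysed for 5 min on ice, so tissue and handling cannot be told apart in any comparison of tumour with spleen.

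NF-kappaB is a family of dimeric transcription factors that inhibitor proteins of the IkB family hold inactive in the cytoplasm. Signals from cytokine, TNF-family and innate receptors lead kinases to mark IkB for degradation, and the freed dimers switch on inflammatory and survival genes. Several of those target genes encode the pathway's own brakes and subunits, among them Nfkbia, Tnfaip3, Nfkb2 and Rel, and in NK cells the pathway is used downstream of activating receptors and of cytokines such as interleukin-18.

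Promoter sequences are shown here because the members' transcript levels are the subject of what follows, and because the DNA motif of the family can be read directly from them. RefSeq promoter windows (GRCm38.p6, the 250 bases before a transcript start) were matched for Nfkbia, Nfkb2, Rel, Tnfaip3, Neurl3 and Rela. The published NF-kappaB consensus was searched on both strands, and overlapping matches were merged. Nfkb1, Relb and Nfkbiz had no entry. The consensus had a match in at least 1 window of 5 of the 5 members with an entry. Of all 32817 windows 3.90% held one, and of all 27025 genes 4.46%. Several of these members are known target genes of the pathway, so the count describes them and is no test of enrichment. The window of Rela, the remaining subunit gene and no member, had none of these letters. The reference is not from a BALB/c mouse, and a match is a description of letters, not a binding site. The window of Nfkbia lies at chr12:55492648-55492897 on the minus strand and is printed whole, with the match in capitals.

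Nfkbia promoter: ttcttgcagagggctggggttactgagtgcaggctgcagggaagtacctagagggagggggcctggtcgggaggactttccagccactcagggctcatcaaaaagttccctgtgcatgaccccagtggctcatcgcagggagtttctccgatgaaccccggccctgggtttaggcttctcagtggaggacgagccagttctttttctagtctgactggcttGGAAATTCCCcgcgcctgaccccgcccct

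For the other 4 members with an entry, 30 bases around 1 match are given, again 5′ to 3′ with the match in capitals. In Nfkb2 and Rel, 2 matches shifted by 1 base were merged into 1 run. The match shown for Nfkb2 is 1 of several in its windows, and that for Tnfaip3 is the one nearest to a transcript start. Those of Nfkb2, Tnfaip3 and Neurl3 lie inside the gene as GENCODE M21 draws it, and that of Rel lies before the gene. The coordinates are chr19:46304688-46304717 on the plus strand for Nfkb2, chr11:23771042-23771071 on the minus strand for Rel, chr10:19015411-19015440 on the minus strand for Tnfaip3 and chr1:36273516-36273545 on the minus strand for Neurl3.
Nfkb2: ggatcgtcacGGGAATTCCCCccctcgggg
Rel: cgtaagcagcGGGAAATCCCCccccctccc
Tnfaip3: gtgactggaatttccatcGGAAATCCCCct
Neurl3: gaggtcatggGGAAAGTCCCggatatcgtc

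The NK libraries held 559688 to 1966963 counts each, and 3 counts corresponded to 1.54 to 4.62 CPM (counts relative to the size of the library). CPM values below are scaled with TMM factors, which correct for differences in RNA composition between libraries. The first principal component of log2 CPM carried 56.4% of the variance and separated tumour from spleen. The second carried 15.3% and set tumour-bearing spleen replicates 1 and 2 and healthy spleen replicate 1 (the first side) apart from the other 4 spleen libraries (the second side). As the sides were read from the same expression values, refits on 1 side below only describe how far a value depends on the libraries. All 12 NK-cell markers were detected in every group. They summed to 20864 to 26067 CPM in tumour NK and 28174 to 31252 CPM in tumour-bearing spleen NK. Gzma alone averaged 13273.5 and 17492.6 CPM in the respective groups and was not called by the edgeR test described below. By that test Ncr1, Klrb1c, Prf1, Tbx21, Klre1 and Nkg7 were lower in tumour NK than in tumour-bearing spleen NK, and Gzmb and Klri2 were higher. Because these are bulk libraries, fewer cells of a type and less RNA per cell cannot be told apart.

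All 8 members were higher in tumour NK than in tumour-bearing spleen NK by edgeR's quasi-likelihood test with Benjamini-Hochberg adjustment (adjusted p under 0.05), against a background of 15.8% of tested genes called higher. Since the members were not picked blind to these data, that count is a description of them. In each of the 8, the lowest tumour library lay above the highest tumour-bearing spleen library, which held for 16.5% of tested genes in that direction. The members' fitted log2 fold changes ran from 0.43 for Nfkb1 to 3.53 for Tnfaip3, with a median of 2.39, beside a median of 0.00140 over all genes tested. No member was called lower by edgeR, none at an unadjusted p under 0.05, and none by DESeq2. The same 8 were higher than in healthy spleen NK, where 16.5% of tested genes were called higher, and again none overlapped, which held for 18.5% of genes. Their median log2 fold change there was 2.35, beside 0.0164 over all genes. Both comparisons use the same 4 tumour libraries, so they are not independent of each other.

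**Figure D1:**
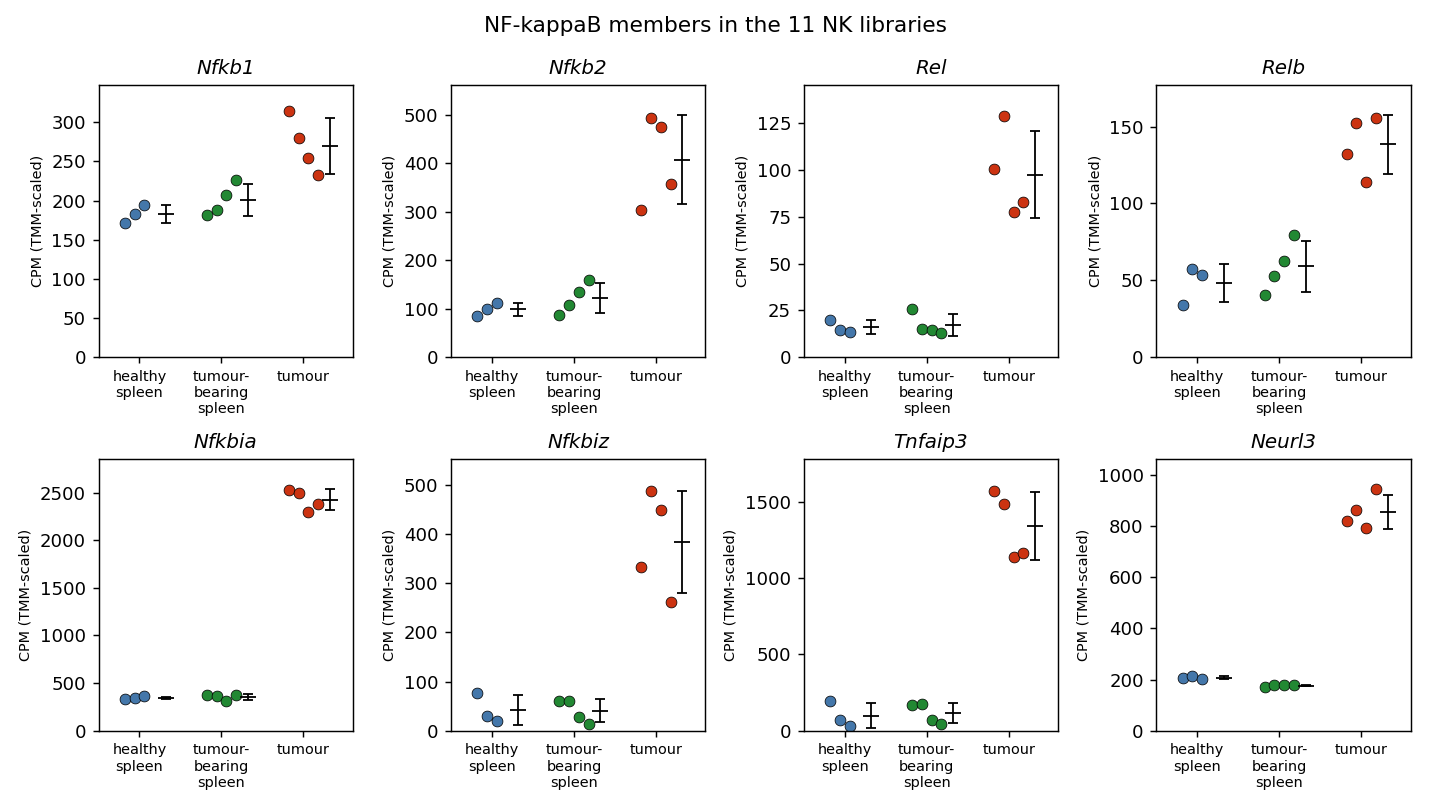
Each panel plots 1 member's TMM-scaled CPM (vertical axis, from 0) in the 3 healthy spleen, 4 tumour-bearing spleen and 4 tumour NK libraries, with 1 point for each library and the group mean ± SD as a bar at the right. In every panel the tumour points lie above all spleen points, by the smallest margin in Nfkb1 (232 to 315 CPM in tumour against 171 to 226 CPM in spleen).

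Among the subunits, Rel, which encodes c-Rel, a transactivating subunit prominent in lymphocytes, changed most. Rel stood at 101, 129, 77.6 and 82.7 CPM in tumour NK replicates 1 to 4. It stood at 25.9, 15.1, 14.4 and 13.0 CPM in tumour-bearing spleen NK and at 20.0, 14.4 and 13.2 CPM in healthy spleen NK. The lowest tumour library was thus well above the highest spleen library, although Rel had the lowest mean CPM of the members in both spleen groups, with 13 counts in its lowest library. The means were 97.5 ± 23.2 CPM in tumour NK (SD, n = 4), 17.1 ± 5.94 CPM in tumour-bearing spleen NK (n = 4) and 15.9 ± 3.64 CPM in healthy spleen NK (n = 3). The log2 fold change of tumour NK was 2.51 (SE 0.225, edgeR adjusted p = 6.31e-08) over tumour-bearing spleen NK and 2.65 (SE 0.266, adjusted p = 3.09e-07) over healthy spleen NK. Rel lies on chromosome 11 at 23736847 to 23770970 (mm10, minus strand).

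Nfkb2 encodes p100, which is processed to the p52 subunit of the alternative NF-kappaB pathway and also acts as an inhibitor before it is cut. It stood at 303, 494, 476 and 357 CPM in tumour NK, at 86.9, 107, 135 and 158 CPM in tumour-bearing spleen NK and at 84.8, 99.5 and 111 CPM in healthy spleen NK. The tumour-bearing spleen libraries spread over a wider range than the healthy ones and reached higher, but stayed below every tumour library. The log2 fold change of tumour NK was 1.74 (SE 0.187, edgeR adjusted p = 1.27e-06) over tumour-bearing spleen NK and 2.03 (SE 0.215, adjusted p = 1.09e-06) over healthy spleen NK. Nfkb2 lies on chromosome 19 at 46304320 to 46312385 (plus strand) and overlaps Psd and AC114539.1 on the other strand in GENCODE M21. Whether the counting used strand is not given in the sources used here, so reads of these genes might be counted with it.

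Relb encodes the usual partner of p52. Its levels were 132, 152, 114 and 156 CPM in tumour NK, 40.4, 53.0, 62.8 and 79.6 CPM in tumour-bearing spleen NK and 33.9, 57.2 and 53.6 CPM in healthy spleen NK. Relb therefore followed Nfkb2 in direction in both comparisons, with a smaller fitted change in each. It changed by 1.22 on the log2 scale (SE 0.189, edgeR adjusted p = 6.08e-05) over tumour-bearing spleen NK and 1.46 (SE 0.217, adjusted p = 3.60e-05) over healthy spleen NK. Relb lies on chromosome 7 at 19606217 to 19629438 (minus strand).

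Nfkb1, which encodes p105 and its product p50, the partner of RelA in the classical dimer, differed least. It stood at 315, 279.7, 254 and 232 CPM in tumour NK, at 181, 188, 207 and 226 CPM in tumour-bearing spleen NK and at 171, 183 and 195 CPM in healthy spleen NK. The lowest tumour library and the highest tumour-bearing spleen library were almost level. The log2 fold change was 0.43 (SE 0.129, edgeR adjusted p = 0.0180) over tumour-bearing spleen NK and 0.56 (SE 0.143, adjusted p = 0.00588) over healthy spleen NK. The first of these calls was lost with upper-quartile scaling (0.33, adjusted p = 0.0573) and without tumour-bearing spleen replicate 1 (0.35, adjusted p = 0.0602) or 2 (0.40, adjusted p = 0.0517). It was also lost without tumour replicate 1 (0.35, adjusted p = 0.0725) and against the 2 tumour-bearing spleen libraries of the second side alone (0.28, adjusted p = 0.169), so the Nfkb1 difference is the weakest of the 8. Nfkb1 lies on chromosome 3 at 135584655 to 135691547 (minus strand), and Gm43430 overlaps it on the same strand.

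Rela encodes the main transactivating subunit and is not one of the 8. It gives a reference for the subunits: its mean was 219 ± 14.5 CPM in tumour NK, 160 ± 8.49 CPM in tumour-bearing spleen NK and 141 ± 4.78 CPM in healthy spleen NK. Its log2 fold change over tumour-bearing spleen NK was 0.46 (SE 0.115, edgeR adjusted p = 0.00503), a value close to that of Nfkb1.

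Nfkbia encodes IkB-alpha, the inhibitor that is degraded on stimulation and made again from a target gene of the pathway. It had the highest CPM of the 8 in all 3 groups (3′ end libraries count transcript ends and not length). It stood at 2527, 2499.7, 2296 and 2379.8 CPM in tumour NK, at 372, 366, 312 and 378 CPM in tumour-bearing spleen NK and at 336, 341 and 361 CPM in healthy spleen NK. The libraries of a group lay close together, with a coefficient of variation (SD as a percent of the mean) of 4.44% in tumour NK, 8.53% in tumour-bearing spleen NK and 3.79% in healthy spleen NK. The log2 fold change was 2.76 (SE 0.136, edgeR adjusted p = 2.08e-11) over tumour-bearing spleen NK and 2.81 (SE 0.153, adjusted p = 1.10e-10) over healthy spleen NK. Nfkbia lies on chromosome 12 at 55489410 to 55492647 (minus strand).

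Nfkbiz encodes IkB-zeta, a nuclear IkB protein that binds NF-kappaB on chromatin and takes part in switching on secondary target genes. It stood at 333, 488, 449.7 and 262 CPM in tumour NK, at 59.5, 61.4, 28.8 and 13.0 CPM in tumour-bearing spleen NK and at 77.0, 29.4 and 20.6 CPM in healthy spleen NK. Every tumour library was above every spleen library, but the spleen libraries differed among themselves far more than for Nfkbia, with a coefficient of variation of 58.3% in tumour-bearing spleen NK and 71.6% in healthy spleen NK. The log2 fold change was 3.23 (SE 0.494, edgeR adjusted p = 0.00116) over tumour-bearing spleen NK and 3.32 (SE 0.582, adjusted p = 0.00239) over healthy spleen NK. Against the 2 tumour-bearing spleen libraries of the second side alone it was 4.10 (adjusted p = 0.00172), and against the 2 of the first side 2.66 (adjusted p = 0.00442). Nfkbiz lies on chromosome 16 at 55811375 to 55838899 (minus strand).

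Tnfaip3 encodes A20, a ubiquitin-editing enzyme that shuts off signalling upstream of the kinase complex. It stood at 1574, 1489.7, 1141 and 1168 CPM in tumour NK, at 168, 177, 71.5 and 47.0 CPM in tumour-bearing spleen NK and at 194, 71.7 and 33.0 CPM in healthy spleen NK. It had the largest fitted fold change of the 8 in both comparisons, and ranked 75 of 8471 genes by log2 fold change over tumour-bearing spleen NK. That log2 fold change was 3.53 (SE 0.574, edgeR adjusted p = 0.00179), and the one over healthy spleen NK was 3.85 (SE 0.673, adjusted p = 0.00256). The wide standard errors go with the spread of the spleen libraries, whose coefficients of variation were 57.3% and 84.4%, against 16.5% in tumour NK. Which spleen libraries were used moved the size, by over 1.5 times at the upper end, but not the call: over tumour-bearing spleen NK the value was 4.45 (adjusted p = 0.00311) with the second side alone and 2.95 (adjusted p = 0.0142) with the first. Over healthy spleen NK it was 4.61 (adjusted p = 0.00117) without healthy spleen replicate 1 and ran down to 3.41 in the other refits. Tnfaip3 lies on chromosome 10 at 19000910 to 19015657 (minus strand).

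Neurl3 encodes a RING-type ubiquitin ligase that is less studied than A20. It stood at 819.8, 862, 792 and 947 CPM in tumour NK, at 172, 177, 179 and 179 CPM in tumour-bearing spleen NK and at 205, 215 and 202 CPM in healthy spleen NK. It was the steadiest member in both spleen groups, with coefficients of variation of 1.78% and 3.13%. In tumour NK it was higher by 2.27 on the log2 scale (SE 0.123, edgeR adjusted p = 6.48e-11) than in tumour-bearing spleen NK and by 2.04 (SE 0.136, adjusted p = 1.37e-09) than in healthy spleen NK. Neurl3 lies on chromosome 1 at 36264597 to 36274679 (minus strand).

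**Figure D2:**
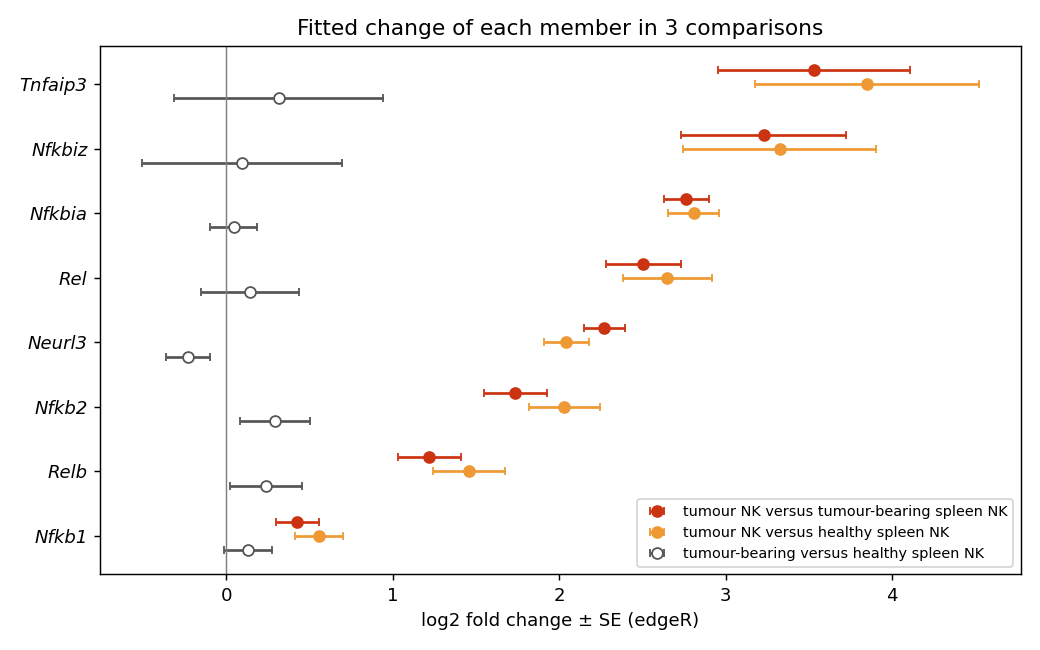
The horizontal axis gives each member's fitted log2 fold change ± SE in the 3 comparisons, with filled points for adjusted p under 0.05 and open points otherwise. The comparisons of tumour with either spleen group lie to the right of 0 for all 8 members, from 0.43 to 3.85, whereas the points for tumour-bearing against healthy spleen lie between -0.23 and 0.32 and are all open.

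Ratios of raw counts within a library need no scaling between libraries and show how unequally the members differed between groups. Tumour NK held 8.03, 8.94, 9.05 and 10.3 counts of Nfkbia for each count of Nfkb1, against 1.5 to 2.05 in tumour-bearing spleen NK and 1.85 to 1.96 in healthy spleen NK. Tumour NK held 4.50 to 5.33 counts of Tnfaip3 for each count of Nfkb1, against 0.208 to 0.944 and 0.169 to 1.14 in the respective spleen groups. Both inhibitor transcripts were therefore higher relative to Nfkb1 in every tumour library than in any spleen library. Against Rela, Nfkbia gave 9.55 to 12.2 counts in tumour NK, 1.99 to 2.43 in tumour-bearing spleen NK and 2.42 to 2.46 in healthy spleen NK.

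Within the subunits the balance also differed. Nfkb2 counts per Nfkb1 count were 0.964, 1.77, 1.87 and 1.54 in tumour NK, 0.479 to 0.70 in tumour-bearing spleen NK and 0.495 to 0.572 in healthy spleen NK. Rel counts per Rela count were 0.486, 0.597, 0.323 and 0.387 in tumour NK, 0.0800 to 0.152 in tumour-bearing spleen NK and 0.0899 to 0.144 in healthy spleen NK. In both ratios every tumour library was above every spleen library. By contrast, Relb counts per Nfkb2 count were 0.240 to 0.436 in tumour NK, 0.465 to 0.502 in tumour-bearing spleen NK and 0.400 to 0.575 in healthy spleen NK. Every tumour library was thus below every tumour-bearing spleen library in this ratio, whereas tumour and healthy spleen libraries overlapped.

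**Figure D3:**
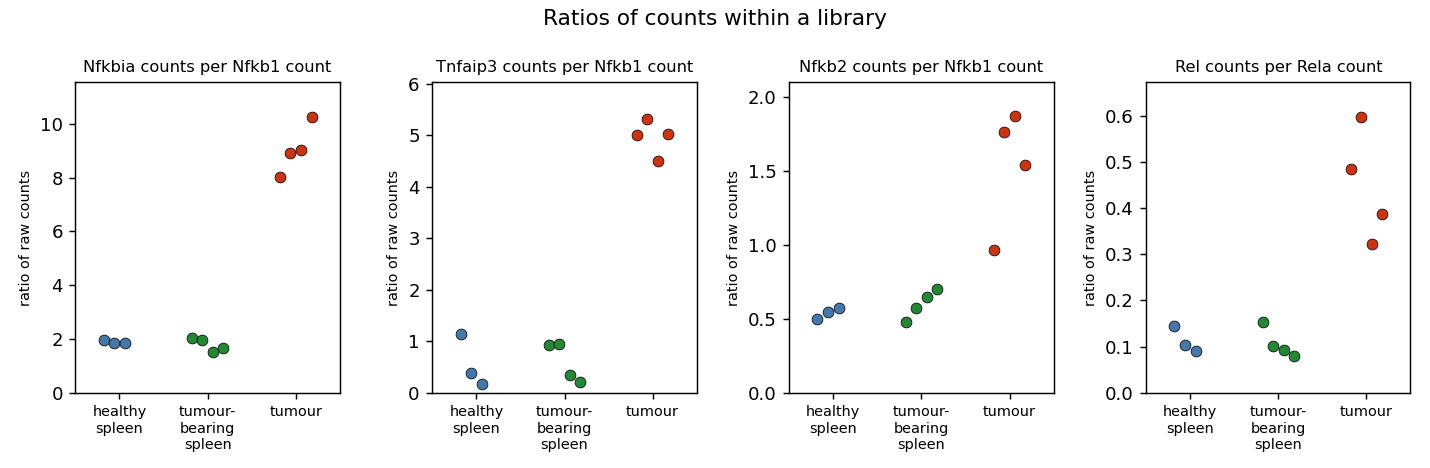
Each panel plots a ratio of raw counts of 2 genes (vertical axis, no unit, from 0) in each of the 11 NK libraries, grouped as healthy spleen, tumour-bearing spleen and tumour. The 4 tumour points lie above the 7 spleen points in all 4 panels, for example at 8.03 to 10.3 counts of Nfkbia per count of Nfkb1 against 1.5 to 2.05 in spleen.

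Between the spleens of tumour-bearing and healthy mice no member was called by edgeR in either direction, against a background of 1.23% of tested genes called higher and 0.354% called lower. None had an unadjusted p under 0.05, and DESeq2 called none. These 7 libraries are the same that served as the spleen side of the comparisons above. The log2 differences (tumour-bearing minus healthy) were 0.32 for Tnfaip3 (SE 0.627), 0.29 for Nfkb2 (SE 0.211), 0.24 for Relb (SE 0.219), 0.14 for Rel (SE 0.296), 0.13 for Nfkb1 (SE 0.142), 0.09 for Nfkbiz (SE 0.601), 0.04 for Nfkbia (SE 0.141) and -0.23 for Neurl3 (SE 0.131). Their median was 0.14, beside -0.00415 over all genes, and 7 of 8 were positive. The standard errors of Tnfaip3 and Nfkbiz would leave sizeable differences undetected, whereas those of Nfkbia, Nfkb1 and Neurl3 are narrower. Neurl3 was the member whose 2 spleen groups did not overlap: all 4 tumour-bearing libraries (172 to 179 CPM) were below all 3 healthy ones (202 to 215 CPM), an arrangement seen in that direction in 5.71% of tested genes, and the adjusted p was 0.563. No member had all tumour-bearing libraries above all healthy ones, which 6.52% of tested genes had.

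The 7 spleen libraries were not alike in Tnfaip3 and Nfkbiz, and the differences followed the second principal component instead of the tumour status of the mouse. The component was computed from all tested genes, the members included, so the values are a description. In healthy spleen NK, the first-side library had 3.71 times the mean Tnfaip3 level of the second-side libraries, and in tumour-bearing spleen NK the ratio was 2.92. The same ratios were 3.08 and 2.89 for Nfkbiz and 1.45 and 1.49 for Rel. Nfkb2 (0.804 and 0.662), Relb (0.611 and 0.656) and Nfkb1 (0.906 and 0.852) had ratios below 1 in both groups, opposite in direction to the first 3. Nfkbia (0.958 and 1.07) and Neurl3 (0.984 and 0.978) were near 1. Thus the 2 most changed members had spleen levels that depended on the library, while Nfkbia and Neurl3 did not show the split.

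The depth and the handling markers of the same libraries were as follows. The first-side libraries held 559688, 1287123 and 1683905 counts and the second-side ones 1210219 to 1966963 counts. The summed level of 21 immediate early and dissociation genes was 2621 CPM on the first side and 2739.3 and 3367 CPM on the second in healthy spleen NK, and 4244 and 4827 against 4498 and 5266 CPM in tumour-bearing spleen NK. The part of depth and of these genes in the split was not tested.

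**Figure D4:**
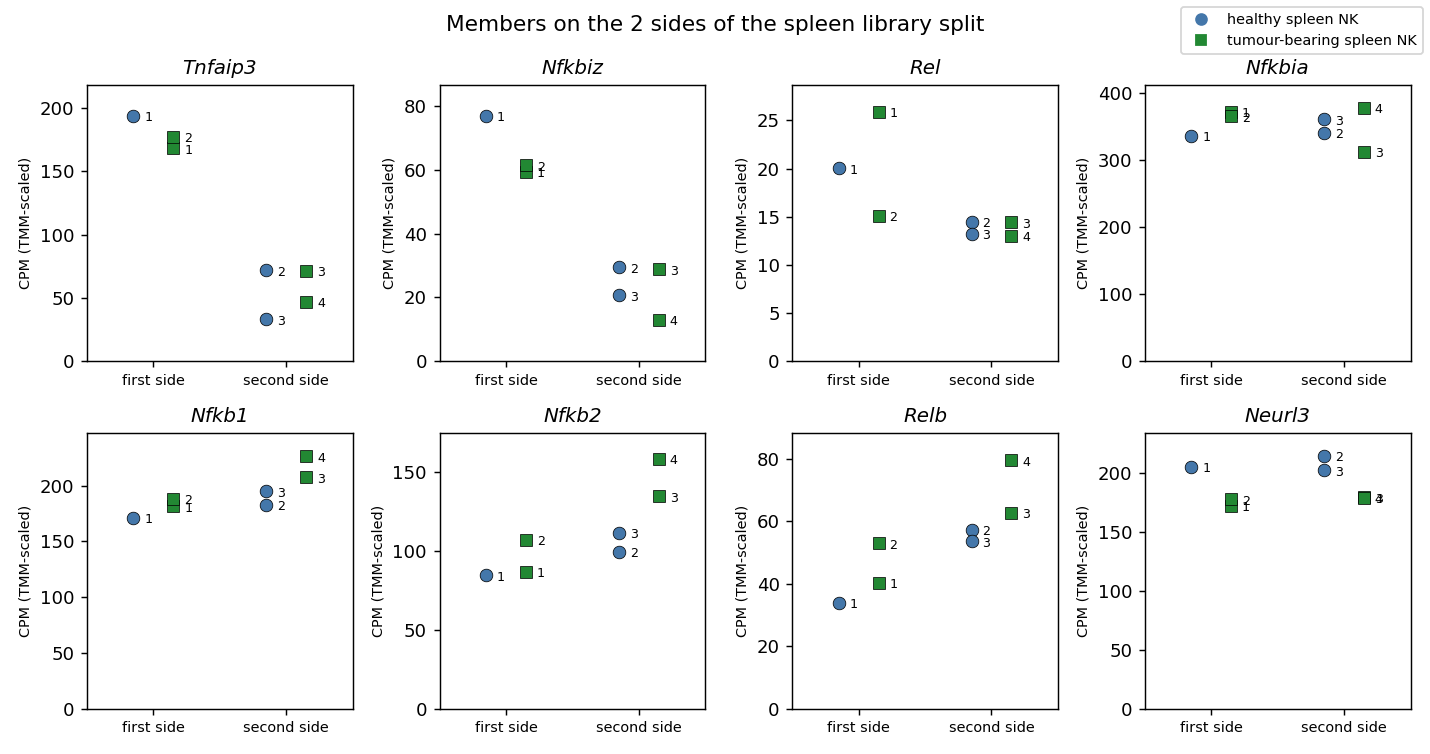
Each panel plots 1 member's TMM-scaled CPM (vertical axis, from 0) in the 7 spleen NK libraries, placed by their side on the second principal component, with circles for healthy and squares for tumour-bearing mice and the replicate number beside each. Tnfaip3 and Nfkbiz are higher on the first side in both groups, with 168 to 194 CPM of Tnfaip3 there against 33.0 to 71.7 CPM on the second, whereas Nfkbia and Neurl3 have similar levels on both.

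The rest of the pathway was taken from a list of 102 genes in 7 roles, of which 90 were in the table and 86 were tested. Without the 8 members, 78 were tested: 36 were called higher and 7 lower in tumour NK than in tumour-bearing spleen NK, and 35 were not called, with a median log2 fold change of 0.45. Over healthy spleen NK 38 were higher, 8 lower and 32 not called, with a median of 0.62. Over all tested genes, 15.8% and 16.5% were called higher and 13.2% and 14.0% lower in the respective comparisons. The shares of the first comparison, 15.8% and 13.2%, are also the background for the role counts below. A count near its share, such as 2 lower of 17 receptor adaptors, is no result about that role. All values in the following account of the roles are log2 fold changes of tumour NK over tumour-bearing spleen NK, with SE and edgeR adjusted p.

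The IkB role held 5 other tested genes. Its 4 IkB-family genes (Nfkbib, Nfkbie, Nfkbid and Bcl3) were higher, and Nkiras2, which encodes a small GTPase that binds IkB proteins and is no IkB itself, was lower (-0.70, SE 0.200, adjusted p = 0.0123). Nfkbie, which encodes IkB-epsilon, changed by 2.32 (SE 0.132, adjusted p = 1.34e-10), and its level went from 61.9 ± 5.97 to 310 ± 29.8 CPM. Nfkbid, which encodes the nuclear protein IkB-NS, changed by 2.24 (SE 0.130, adjusted p = 1.65e-10), and Bcl3, a nuclear partner of p50 and p52, by 1.09 (SE 0.188, adjusted p = 0.000219). Genes of the IkB family beyond the 2 members were thus higher too. Of 11 kinases, 3 were higher and 8 not called. The 3 were Map3k8 (1.85, SE 0.278, adjusted p = 9.27e-05), which encodes Tpl2, Map3k14 (1.61, SE 0.207, adjusted p = 8.04e-06), which encodes NIK, the kinase of the alternative pathway, and Tab2 (1.21, SE 0.199, adjusted p = 0.00019), a partner of the kinase TAK1.

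Among 15 other ubiquitin editors and partners, 6 were higher, 1 lower and 8 not called. Zc3h12a, which encodes the RNase Regnase-1, changed by 2.73 (SE 0.175, adjusted p = 6.32e-10). The ubiquitin ligases Birc3 and Birc2 changed by 2.08 (SE 0.175, adjusted p = 3.05e-08) and 1.31 (SE 0.187, adjusted p = 2.42e-05). Of 17 receptor adaptors, 5 were higher, 2 lower and 10 not called. The 3 largest were Irak2 (2.22, adjusted p = 7.83e-09), an adaptor kinase of interleukin-1-type receptors, Malt1 (1.01, adjusted p = 0.000124), a protease that cuts A20, and Ripk2 (0.95, adjusted p = 0.00452). Of 9 receptors, 3 were higher, 1 lower and 5 not called, with Tnfrsf1b at 1.87 (adjusted p = 2.19e-05), Tnfrsf9 at 1.56 (adjusted p = 1.87e-07) and Tnfrsf4 at -1.21 (adjusted p = 0.0092). Against the first-side tumour-bearing spleen libraries alone, the calls on Ripk2 (0.71, adjusted p = 0.0742) and Tnfrsf4 (-0.80, adjusted p = 0.154) were lost.

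Of 20 known target genes, 14 were higher, 2 lower and 4 not called, with a median of 1.53, the highest of the roles with more than 1 other gene. Il2ra, the high-affinity interleukin-2 receptor chain, had 0 counts in tumour-bearing spleen NK and 26.0 ± 9.51 CPM in tumour NK, at least 55.8-fold higher when 3 counts over the whole spleen group are taken as the floor. Cxcl10, a chemokine gene, went from 4.91 ± 2.62 to 148 ± 40.4 CPM (4.93, SE 0.294, adjusted p = 5.36e-10). Cxcl2, another chemokine gene, stood at 29.8 ± 14.7 CPM in tumour NK and at 0.609 ± 0.796 CPM in tumour-bearing spleen NK, where its 4 libraries held 1, 3, 0 and 0 counts (5.33, SE 0.654, adjusted p = 1.07e-05). The targets did not all move one way, as the chemokine genes Ccl3 (-1.29) and Ccl5 (-1.08) were lower. Beside Nkiras2 and Tnfrsf4, the other genes of the list called lower were N4bp1 (-0.59), Tradd (-0.83) and Traf5 (-0.80); these 3, Nkiras2, Nfkbib and the 2 chemokine genes were named after their values were seen.

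**Figure D5:**
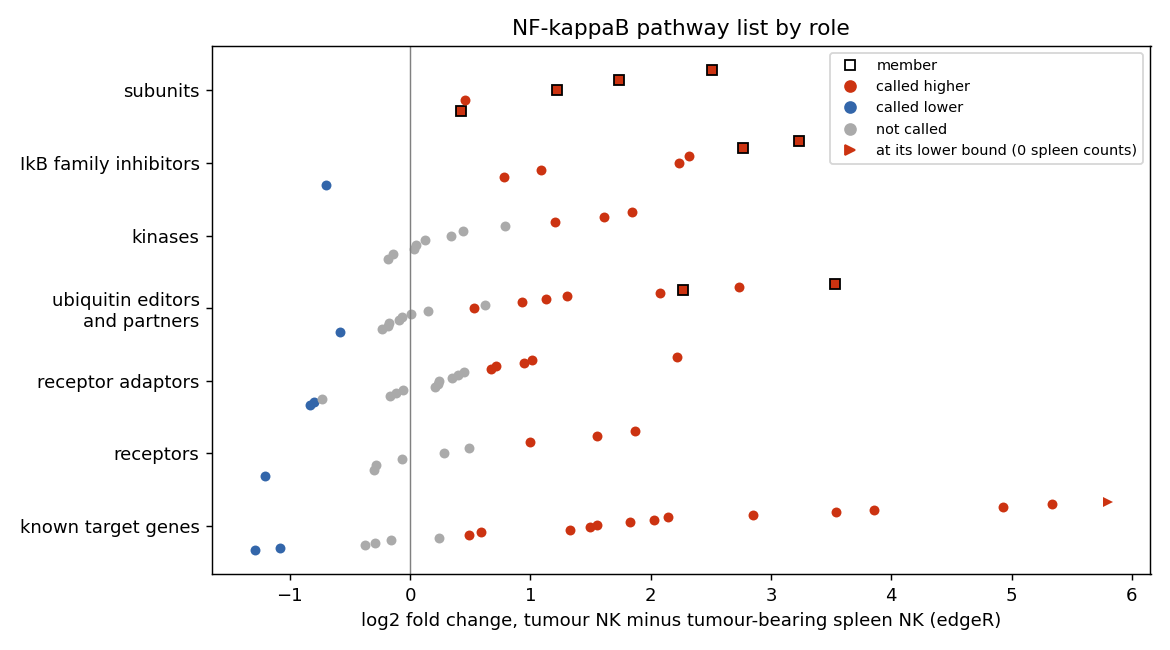
Each point is 1 tested gene of the pathway list, by role (vertical axis) and log2 fold change of tumour NK over tumour-bearing spleen NK (horizontal axis), with black-edged squares for members, red for genes called higher, blue for genes called lower and grey for genes not called. A triangle marks a gene with 0 spleen counts at its lower bound. The 20 known targets reach farthest to the right, with 14 called higher, and the 8 members lie between 0.43 and 3.53.

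Between tumour-bearing and healthy spleen, 4 of the 78 other pathway genes were called higher and 0 lower by edgeR. Over all tested genes the shares were 1.23% and 0.354%. At an unadjusted p under 0.05 there were 7 and 3, and DESeq2 called 1 lower. The 4 were Ccl4 (2.06, adjusted p = 8.98e-06), Bcl2a1b (1.95, adjusted p = 0.00695), Tnfrsf9 (1.91, adjusted p = 2.59e-05) and Ccl3 (1.24, adjusted p = 0.000206), the last named after its value was seen. The call on Bcl2a1b, an anti-apoptotic gene with near-identical copies, was lost without healthy spleen replicate 2 (adjusted p = 0.0929) or 3 (adjusted p = 0.0589). Ccl4 stood at 1777 ± 148 CPM in tumour-bearing spleen NK, 424 ± 76.0 CPM in healthy spleen NK and 1595 ± 368 CPM in tumour NK, an order that none of the 8 members had. Tnfrsf9 encodes 4-1BB, a costimulatory receptor that signals to NF-kappaB, and stood at 27.0 ± 3.33, 103 ± 17.1 and 306 ± 53.1 CPM in healthy spleen, tumour-bearing spleen and tumour NK.

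The genes whose log2 CPM most resembled the members' mean standardised log2 CPM over the 11 NK libraries were Cdkn1a (Pearson r 0.998), Nfkbie (0.996), Gna13 (0.995), Nrp1 (0.995), Gadd45b (0.994) and Polg2 (0.992). The likeness rests mainly on the gap between tumour and spleen that all these genes share, and is given as a description. Cdkn1a, which encodes the cell-cycle inhibitor p21, went from 26.3 ± 2.24 CPM in tumour-bearing spleen NK to 480 ± 69.1 CPM in tumour NK. Gadd45b, itself a known target gene of the pathway, went from 61.6 ± 11.3 to 896 ± 137 CPM. Nrp1 had 0 counts in both spleen groups and 11.8 ± 2.19 CPM in tumour NK, at least 25.3-fold higher than tumour-bearing spleen NK with 3 counts over the group as the floor.

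Other markers also differed between tumour and spleen libraries. The 21 immediate early and dissociation genes summed to 10712 to 13461 CPM in tumour NK, 4244 to 5266 CPM in tumour-bearing spleen NK and 2621 to 3367 CPM in healthy spleen NK. Over tumour-bearing spleen NK 16 of the 21 were called higher and 1 lower, beside 15.8% and 13.2% of all tested genes. Their median log2 fold change was 1.27. Their part in the members' differences was not tested. All 6 markers of ILC1-like and resident lymphocytes were detected and summed to 478 to 647 CPM in tumour NK. The spleen sums were 75.7 to 176 CPM in tumour-bearing spleen NK and 71.7 to 133 CPM in healthy spleen NK. Tmem176b and Tmem176a made up most of the tumour NK sum, with means of 261 and 133 CPM. Over tumour-bearing spleen NK, Tmem176a, Tmem176b, Tnfsf10 and Cd200r1 were called higher by edgeR, whereas Il7r was not called (edgeR adjusted p = 0.0511). Itga1 averaged 5.90 CPM in tumour NK, close to the floor. Neutrophil markers (5 of 10 in the table) summed to 61.5 to 158 CPM in tumour NK, 1.45 to 13.4 CPM in tumour-bearing spleen NK and 1.61 to 7.70 CPM in healthy spleen NK. S100a9 and S100a8 made up most of the tumour NK sum, with means of 56.9 and 25.1 CPM. Retnlg averaged 5.96 CPM there and had 0 counts in both spleen groups. Mmp9 averaged 1.46 CPM in tumour NK. Ngp was lower in tumour NK (0.238 CPM) than in tumour-bearing spleen NK (1.33 CPM), both near the floor. Carcinoma markers (2 of 10) summed to 27.7 to 54.9 CPM in tumour NK and to at most 3.08 CPM in the spleen groups. Cdh1 made up most of the tumour NK sum, with a mean of 42.0 CPM, whereas Epcam averaged 4.06 CPM there, close to the floor. Macrophage and monocyte markers (10 of 14) summed to 1817 to 2138 CPM in tumour NK, 1185 to 1888 CPM in tumour-bearing spleen NK and 1478 to 1989 CPM in healthy spleen NK. Ccr2, Ly6c2 and Itgam made up most of that sum, and Itgam was called lower in tumour NK. The more macrophage-restricted genes were low but higher in tumour replicate 3 than in the other tumour libraries: Apoe stood at 105 CPM there and at 10.1 to 13.3 CPM in the other 3, Lyz2 at 40.3 against 4.10 to 7.25 CPM, C1qa at 23.4 against 0.951 to 4.92 CPM, and C1qb at 24.1 against 0 to 1.64 CPM. In tumour-bearing spleen NK the mean was 5.18 CPM for Apoe, 1.96 CPM for Lyz2 and 0.330 CPM for C1qa. Csf1r was at 0 in both spleen groups and at 2.17 CPM on average in tumour NK. Apoe was called higher over tumour-bearing spleen NK (log2 fold change 2.84, edgeR adjusted p = 0.0406). Without tumour replicate 3, all 8 members were still called higher than in either spleen group. That refit describes how far the calls depend on that library and does not test the part of macrophages. Dendritic-cell markers (5 of 10) summed to 443 to 598 CPM in tumour NK, 318 to 429 CPM in tumour-bearing spleen NK and 182 to 249 CPM in healthy spleen NK. Of these, Itgax was called lower in tumour NK than in tumour-bearing spleen NK (198 against 270 CPM, log2 fold change -0.44, edgeR adjusted p = 0.0213). Zbtb46, H2-Ab1, H2-Aa and H2-Eb1 were called higher. Pecam1, the 1 endothelial marker of 7 in the table and the gene of the sort marker CD31, was called higher in tumour NK, at 169 ± 31.5 CPM against 84.6 ± 9.79 CPM in tumour-bearing spleen NK and 59.9 ± 19.8 CPM in healthy spleen NK (log2 fold change over tumour-bearing spleen NK 1.00, SE 0.172, edgeR adjusted p = 0.000191). Whether these marker levels came from other cells, and the part of such cells in the members' levels, was not tested.

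The sCAF libraries give the members' levels in stromal cells of the same tumour type. They form a separate table of 12235 genes with 1318067 to 2230475 counts a library, so values from both tables are set side by side on plain CPM of the library total, with no test and no TMM factor. Nfkbia was at 2446, 2456 and 3049.9 CPM in the 3 sCAF libraries, with a mean of 2650 ± 346 CPM (n = 3), beside 2256 ± 156 CPM in tumour NK (n = 4). Both cell types from tumours thus had Nfkbia levels of the same order. Both also came from tissue digested for 20 min at 37 °C, and the part of tissue or handling in these levels was not tested. Tnfaip3 averaged 262 ± 48.9 CPM in sCAFs beside 1251 ± 232 CPM in tumour NK, Rel 15.7 ± 9.80 beside 91.1 ± 24.7 CPM, and Neurl3 33.8 ± 4.08 beside 795 ± 68.7 CPM. For these 3, the sCAF mean was below the tumour NK mean, whereas Nfkb2 (375 ± 48.5 beside 379 ± 90.8 CPM) and Relb (131 ± 35.5 beside 129 ± 20.3 CPM) had nearly equal means. Nfkb1 averaged 186 ± 28.0 CPM beside 251 ± 36.6 CPM, and Nfkbiz 213 ± 84.5 CPM beside 357 ± 103 CPM.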

How the data were processed

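Libraries of 3′ mRNA ends were sequenced, 11 of NK cells and 3 of sCAFs. The deposited tables hold whole-number read counts per gene, which the authors made with bcl2fastq, STAR 2.4.2a and HTSeq on mm10, per the submitters' processing notes; the notes give these names without roles, and the annotation and strand setting are not given in the sources used here. The NK table lists 10210 genes, each with at least 6 counts in some library.

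NK counts were filtered with filterByExpr (8471 genes kept), scaled by TMM and fitted over all 11 libraries with edgeR 4.0.16 (glmQLFit, robust, glmQLFTest; R 4.3.3, limma 3.58.1). Calls were made where the Benjamini-Hochberg value, adjusted across every tested gene, was below 0.05, and SE is the absolute log2 fold change over the square root of F. Groups came from the sample titles. The members and lists were chosen with earlier results of these data known. Named besides the members and Rela were up to 3 called genes a role by absolute log2 fold change, up to 3 called genes of the list in each further comparison, and the 6 genes most like the members' mean. The procedure was also run on simulated counts with the same spread for every gene and no split of the spleen libraries. That run therefore does not cover genes as variable in spleen as Tnfaip3 and Nfkbiz. Alternatives were DESeq2 1.42.0, upper-quartile scaling, no filter, 2-group fits, a replicate block, leaving out each library, and the spleen split. Replicate pairs differed by more than counting noise (chi-square per degree of freedom of at least 1.95). Floors of 3 counts cover counting error only. B-cell markers (1 of 8 in the table), erythroid and platelet markers (1 of 8), T-cell markers (3 of 11) and fibroblast markers (4 of 9) were also summed, to at most 9.25, 9.02, 149 and 35.2 CPM in any NK library. In tumour NK these sums were 1.45 to 3.80, 0 to 9.02, 64.7 to 106 and 13.0 to 35.2 CPM.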

Additional observations from a re-analysis of the deposited data

Results flagged for a closer look

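Among 66 groups of 4 libraries examined (the members, the named genes and the genes most like them), 5 had a library set apart from the other 3 by more than Dixon's 95% limit, and chance alone marks about 1 group in 20. Rel stood at 25.9 CPM in tumour-bearing spleen replicate 1, above the other 3 libraries of that group. Nfkbie stood at 53.0 CPM in tumour-bearing spleen replicate 3 and Nfkbid at 97.7 CPM in tumour-bearing spleen replicate 2, each below the other 3. Irak2 stood at 139 CPM and Cdkn1a at 583 CPM in tumour replicate 2, each above the other 3.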

How the results depend on the processing

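Each member was refitted in 12 settings against healthy spleen NK and in 15 against tumour-bearing spleen NK. Most of these left out 1 library, so they share most of their data. Counting each of the 8 members in each setting, 96 of 96 calls held against healthy spleen NK. Against tumour-bearing spleen NK 115 of 120 held, the 5 exceptions all being Nfkb1. No member changed direction in a called comparison. With the spleen side as a term, 1 member (Nfkb2), 443 genes higher and 248 lower were called between the spleen groups (0, 104 and 30 without the term), and 4 other pathway genes lower (0 without the term, and 1 by DESeq2); that side was read from the same expression values, the members included, so these counts are a description and no test. Against the first-side tumour-bearing spleen libraries alone, 2 other pathway genes (7 against all 4) and 546 genes in all (1115) were lower. Leaving out 1 library in turn gave 4 to 9 other pathway genes and 782 to 1406 genes lower in tumour than in healthy spleen (8 and 1183 with all; 4 without healthy spleen replicate 3, 5 and 782 without replicate 2), and 35 to 100 genes higher and 7 to 25 lower in tumour-bearing than in healthy spleen (35 and 7 without healthy spleen replicate 2, 59 and 8 without replicate 3, and 18 and 16 lower without tumour-bearing spleen replicates 1 and 4). The causes of these shifts were not tested. Upper-quartile scaling gave 1091 genes higher and 1530 lower over tumour-bearing spleen (1338 and 1115 with TMM), and 1154 and 1569 over healthy spleen (1399 and 1183 with TMM). Whether the replicate numbers pair samples cannot be told from the few same-number correlations, which ran from -0.353 to 0.501 over all comparisons. Between tumour and tumour-bearing spleen they were -0.0471, 0.288, 0.00249 and 0.211 for replicates 1 to 4. Tumour replicates 2 and 4 had their best match in the library of the same number. A replicate block left all member counts unchanged and called 18 genes lower between spleens. The call on Ripk2 over healthy spleen was lost under 6 alternatives. Depth limits Rel most, with 13 counts in its lowest library.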
